A study of Danio rerio with 9 samples.

Results

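Signals of the pentose phosphate pathway enzymes were followed in zebrafish gastrulae exposed to pentachlorophenol. The set named 7 genes: pgls, pgd, rpia, rpe, tkta, tktb and taldo1. Members were every probe set of the array whose platform annotation gave exactly 1 gene, matched through its gene identifier to one of these genes. By this rule 5 of the 7 genes were found, with 8 probe sets, among 8796 genes and 15617 probe sets in all. No probe set carried rpia or tkta as its 1 gene, and these genes were not analysed here. The filter on low signal passed 4 of the 5 genes and 5 of the 8 probe sets, and every member is described below whether it passed or not.

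Whole-body total RNA came from wild-type embryos of the Tuebingen strain at about 8 h after fertilisation, and 1 biotin-labelled sample was hybridised to each Affymetrix array. The 3 groups were embryos kept in deionized water as the control, embryos exposed to 20 µg/L pentachlorophenol and embryos exposed to 50 µg/L pentachlorophenol, with 3 biological replicates per group. Pentachlorophenol is a chlorinated phenol used as a wood preservative and biocide, and it is an uncoupler of oxidative phosphorylation. Each sample was whole embryos picked by stage under the microscope. The number of embryos and clutches behind a sample was not given in the sources used here, and the p-values cover only the variation among these 9 arrays, which may be partly technical.

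The pentose phosphate pathway runs beside glycolysis in the cytosol. Its oxidative branch starts from glucose 6-phosphate and reduces NADP+ to NADPH, the electron donor for lipid synthesis and for keeping glutathione and thioredoxin reduced. Its non-oxidative branch interconverts sugar phosphates, yields ribose 5-phosphate for nucleotides and returns fructose 6-phosphate and glyceraldehyde 3-phosphate to glycolysis.

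The arrays were the same in scale, with trimmed means of 500.1 to 500.2 signal units, and median signals of 97.9 to 151.9. An array's background was taken as the 95th percentile of its tag control probe sets, which was 50.6 to 113.8. The array of control replicate 3 had the highest background and the lowest median rank correlation with the other arrays (0.847), followed by 50 µg/L replicate 1 (0.878), while the other 7 arrays reached 0.906 to 0.922. The array of 20 µg/L replicate 3 stood apart from its group in gapdhs, with a signal of 2575.2 against 143.2 and 168 in the other 20 µg/L replicates. Gastrula markers were well measured, with 10 of 11 above background on all 9 arrays. The summed signal of 10 germ cell and maternal transcripts was 2548 to 3576 in controls, 3197 to 3742 at 20 µg/L and 7285 to 11777 at 50 µg/L. Of the 10, 5 rose at 50 µg/L over control, namely btg4, wee2, cth1, zar1 and buc. The others, ddx4, nanos3, dnd1, dazl and zp3a.2, did not pass. None of the 10 was at 0 on any array. At 50 µg/L 2 of 11 gastrula markers, 1 of 6 tested yolk syncytial layer markers and 0 of 6 tested enveloping layer markers rose, and 1 of 3 tested markers of segmentation and later stages fell. The yolk syncytial layer marker was hnf4a and the one that fell was actc1b. Each had a second tested probe set that did not pass (limma adjusted p = 0.372 and 0.162). The actc1b signal was above background on only 1 of 3 arrays at 50 µg/L. Summed signals of the gastrula markers were 26679 to 27680 in controls, 28921 to 33782 at 20 µg/L and 37237 to 46469 at 50 µg/L. Most of this sum was held by tbx16, sox3 and sox32, which did not pass at 50 µg/L over control (limma adjusted p = 0.0972, 0.173 and 0.194). In that comparison 3 of the 11 gastrula markers had negative changes. Sums of the 8 yolk syncytial layer markers were 2668 to 4801 in controls, 3541 to 5838 at 20 µg/L and 5325 to 6009 at 50 µg/L. The 13 markers of segmentation and later stages summed to 926 to 1611 in controls, 809 to 899 at 20 µg/L and 767 to 809 at 50 µg/L. Only 1 of the 13 was above the background level on all 9 arrays, and 2 were not above it on any. The filter on low signal passed 3 of the 13, so most of the genes in this sum were dim, and it is not read as a change with dose. The part of these differences in the member signals was not tested. In these bulk samples fewer cells of a type and less RNA per cell cannot be told apart.

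No pentose phosphate probe set passed the test at either dose, which does not show that the signals did not differ, and the confidence intervals are given with each change. At 50 µg/L the signals of pgd, taldo1 and 1 of the 2 rpe probe sets had lower group means than in controls, by 0.66 to 0.8 on the log2 scale, and none passed after adjustment. The rpe probe sets are called rpe-A1 and rpe-S1 here, after the ends of their identifiers, and the lower one was rpe-A1. Across the array 4.48% of the 9301 tested probe sets were called at 50 µg/L over control (1.03% lower, 3.45% higher), against 0 of 5 member probe sets. These calls are limma moderated tests on log2(signal + 1) with Benjamini-Hochberg adjustment over all 9301 probe sets and a threshold of 0.05. The lower dose, 20 µg/L over control, gave 0 calls among the 9301 probe sets (0%), while 731 (7.86%) had an unadjusted limma p under 0.05, and 0 of 5 member probe sets did. Between the doses, 50 over 20 µg/L, 1.39% of all probe sets were called (0.0323% lower), against 0 of 5 member probe sets. The F test over both doses called 1.76% of all probe sets, and again 0 of 5 members.

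**Figure D1:**
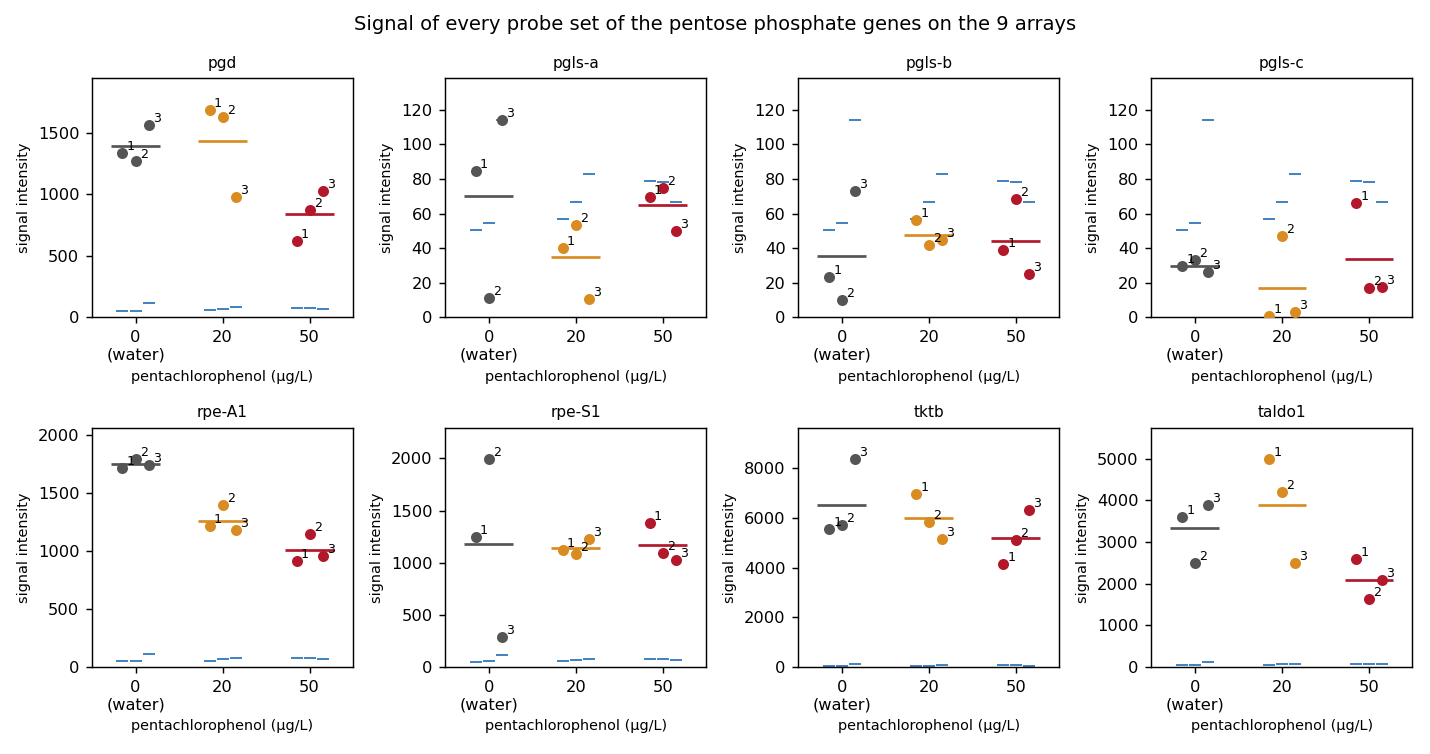
Signal intensity (linear axis from 0) of each of the 8 probe sets on the 9 arrays, with 3 numbered replicates at 0 (water), 20 and 50 µg/L pentachlorophenol; horizontal bars are group means and blue dashes the tag control level of each array. The 3 pgls probe sets lie at or under the blue dashes on nearly all arrays, and rpe-A1 has 3 groups that do not overlap.

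In the oxidative branch, pgls encodes 6-phosphogluconolactonase, which opens the ring of 6-phosphogluconolactone to give 6-phosphogluconate. All 3 of its probe sets, called pgls-a, pgls-b and pgls-c by falling mean signal, were left out of the test as dim. The pgls-a signals were 84.4, 11.4 and 114.1 in controls, 40.4, 53.4 and 10.5 at 20 µg/L, and 69.7, 74.9 and 50.1 at 50 µg/L. It exceeded the background level on 2 of 9 arrays, both of them controls. The pgls-b signals were 23.2, 10.3 and 72.9 in controls, 56.3, 42.1 and 44.8 at 20 µg/L, and 38.7, 68.4 and 25.3 at 50 µg/L. The pgls-c signals were 29.8, 33.1 and 26.1 in controls, 0.7, 47.1 and 3 at 20 µg/L, and 66.1, 17.2 and 17.5 at 50 µg/L. Both of these exceeded the background level on 0 of 9 arrays. The pgls signals were therefore not well above background, and no fold is given for them. Tested without the low-signal filter, their limma adjusted p-values ran from 0.418 to 0.973 over the 3 comparisons.

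The second oxidative enzyme measured was pgd, 6-phosphogluconate dehydrogenase, which makes NADPH and releases ribulose 5-phosphate. Its probe set gave 1338.1, 1271 and 1560.7 in controls, 1686.9, 1627.9 and 977.6 at 20 µg/L, and 621, 870.3 and 1030.3 at 50 µg/L. At 20 µg/L replicates 1 and 2 were above every control and replicate 3 below every control, while all 3 arrays at 50 µg/L were below all 3 controls. Group means were 1389.9 ± 151.7 in controls, 1430.8 ± 393.6 at 20 µg/L and 840.5 ± 206.3 at 50 µg/L (SD, n = 3 each).

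The log2 change of pgd at 50 µg/L over control was -0.75 (SE 0.29, 95% confidence interval -1.38 to -0.12), with a limma adjusted p of 0.139. Without 50 µg/L replicate 1, its lowest array, the change was -0.55 with a limma adjusted p of 0.429. The change was 0.01 at 20 µg/L over control (interval -0.63 to 0.64, limma adjusted p = 0.996). For 50 over 20 µg/L it was -0.76 (SE 0.29, interval -1.39 to -0.12), with a limma adjusted p of 0.199.

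The non-oxidative branch opens with rpe, ribulose-5-phosphate 3-epimerase, which turns ribulose 5-phosphate into xylulose 5-phosphate, the substrate of transketolase. It was the member nearest the threshold, and its 2 probe sets differed from each other. Probe set rpe-A1 gave 1715.3, 1789.3 and 1737.8 in controls, 1213.5, 1396.1 and 1176.6 at 20 µg/L, and 914.1, 1150.6 and 954 at 50 µg/L. Every array at 20 µg/L lay below every control and every array at 50 µg/L below every array at 20 µg/L. Group means were 1747.5 ± 37.9 in controls, 1262.1 ± 117.5 at 20 µg/L and 1006.2 ± 126.6 at 50 µg/L (SD, n = 3 each).

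On the log2 scale rpe-A1 differed by -0.8 at 50 µg/L over control (SE 0.23, 95% confidence interval -1.29 to -0.31), with an unadjusted limma p of 0.00385 and an adjusted p of 0.0617. After each array was centred on its median the change was -1.09 with a limma adjusted p of 0.0331, and with array weights it was -0.81 with 0.0123, so those settings called it lower. They called 570 and 1724 of all 9301 probe sets in either direction, against 417 in the main fit. The weights of control replicates 1, 2 and 3 were 2.63, 0.51 and 0.27, so the weighted control mean rested mostly on replicate 1. Without 50 µg/L replicate 1 the change of rpe-A1 was -0.74 with a limma adjusted p of 0.234. The change was -0.47 at 20 µg/L over control (SE 0.23, interval -0.96 to 0.02, limma adjusted p = 0.635). It was -0.33 in 50 over 20 µg/L (interval -0.82 to 0.16, limma adjusted p = 0.46). The moderated F test over both doses gave it an adjusted p of 0.132.

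The rpe-S1 signals were 1249.4, 1991.1 and 288.4 in controls, 1126.1, 1082.1 and 1225.4 at 20 µg/L, and 1381.6, 1091.6 and 1024 at 50 µg/L. The controls held both its highest and its lowest array, and the groups overlapped. Its lowest value was on control replicate 3, where rpe-A1 gave 1737.8. The log2 change of rpe-S1 at 50 µg/L over control was 0.37 (SE 0.53, interval -0.78 to 1.52, limma adjusted p = 0.704). Without control replicate 3 it was -0.45 with a limma adjusted p of 0.356. Its changes were 0.35 at 20 µg/L over control (interval -0.8 to 1.5, limma adjusted p = 0.874) and 0.02 in 50 over 20 µg/L (interval -1.13 to 1.17, limma adjusted p = 0.992).

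Spread within groups set these probe sets apart. rpe-A1 had a residual SD of 0.13 log2 units, at percentile 0.7 of the tested probe sets. rpe-S1 had 0.85, at percentile 93.2. The remaining members lay at or below the median of 0.41 over all tested probe sets, with 0.29 for tktb, 0.34 for pgd and 0.41 for taldo1.

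Transketolase moves a glycolaldehyde unit between sugar phosphates and needs thiamine diphosphate as its cofactor. The zebrafish paralogue tktb was measured by a probe set whose identifier ends in _s_at. That ending marks, by the manufacturer's convention, a probe set that can match transcripts of more than 1 gene, so its signal may include related sequences. It gave 5547.7, 5705 and 8351.1 in controls, 6974.3, 5852.7 and 5139.3 at 20 µg/L, and 4146.9, 5127.1 and 6302 at 50 µg/L. The 3 groups overlapped. Means were 6534.6 ± 1575.1 in controls, 5988.8 ± 925 at 20 µg/L and 5192 ± 1079 at 50 µg/L (SD, n = 3 each). The log2 change of tktb at 50 µg/L over control was -0.33 (SE 0.25, interval -0.86 to 0.21, limma adjusted p = 0.434), and with control replicate 3 and 50 µg/L replicate 1 both left out it was 0.01. It was -0.11 at 20 µg/L over control (interval -0.64 to 0.42, limma adjusted p = 0.921), and in 50 over 20 µg/L it was -0.22 (interval -0.75 to 0.32, limma adjusted p = 0.671). The planned comparison of tktb with tkta was not possible, since tkta was not analysed here.

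Transaldolase, encoded by taldo1, moves a dihydroxyacetone unit and with transketolase links the pathway to glycolysis. Its probe set, of a kind (_a_at) that covers transcript variants of 1 gene, gave 3596.1, 2505.6 and 3883.8 in controls, 4983, 4204.8 and 2486.9 at 20 µg/L, and 2582.7, 1637.2 and 2082.4 at 50 µg/L. At 20 µg/L replicates 1 and 2 were above every control and replicate 3 below every control, as for pgd. The 50 µg/L and control groups overlapped, since 50 µg/L replicate 1 was above control replicate 2. Means were 3328.5 ± 727 in controls, 3891.6 ± 1277.2 at 20 µg/L and 2100.8 ± 473 at 50 µg/L (SD, n = 3 each).

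The log2 change of taldo1 at 50 µg/L over control was -0.66 (SE 0.3, 95% confidence interval -1.32 to 0, limma adjusted p = 0.202). The change was 0.19 at 20 µg/L over control (interval -0.47 to 0.85, limma adjusted p = 0.881). For 50 over 20 µg/L it was -0.85 (SE 0.3, interval -1.51 to -0.19), with a limma adjusted p of 0.177. Without 20 µg/L replicate 3, its lowest array in that group, the change of taldo1 in 50 over 20 µg/L was -1.15 and passed with a limma adjusted p of 0.049, and that of pgd was -1.01 with 0.0735. Without that array 449 of all 9301 probe sets passed in 50 over 20 µg/L, against 129 in the main fit. With control replicate 3 and 50 µg/L replicate 1 both left out, the changes at 50 µg/L over control were -0.46 for pgd, -0.74 for rpe-A1 and -0.7 for taldo1, with limma adjusted p-values of 0.522, 0.234 and 0.362.

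**Figure D2:**
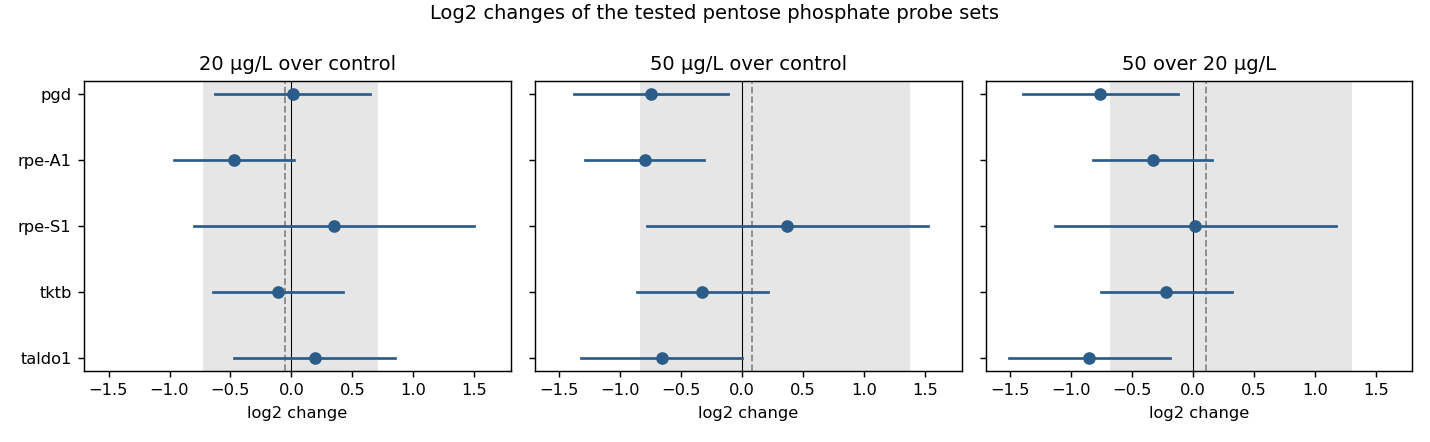
Log2 change (horizontal axis) of the 5 tested member probe sets in the 3 comparisons, with points for the limma estimate, bars for its 95% confidence interval, a dashed line at the median of all tested genes and a grey band from their 5th to 95th percentile. At 50 µg/L over control 4 of 5 points lie below 0, and none passed after adjustment.

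Medians took 1 probe set per gene, and rpe was represented by rpe-A1, with a mean log2 signal of 10.35 against 10.05 for rpe-S1. At 50 µg/L over control rpe-A1 was at -0.8 and rpe-S1 at 0.37, so the median depends on this choice. With the mean of all tested probe sets standing for each gene, that median was less negative, within the -0.99 to -0.49 of the alternatives below. The median log2 change of the 4 member genes was -0.71 at 50 µg/L over control, against 0.08 over 6116 genes. The middle 90% of those genes, taken singly, lay between -0.83 and 1.37, and the 4 members, at -0.8 to -0.33, were inside that range. It is a range of single genes and does not measure how far a median of 4 genes varies. Most of the members lay near its lower end. Among the log2 changes of the 9301 tested probe sets, rpe-A1 was at percentile 5.9, pgd at 7 and taldo1 at 9.6. For tktb the percentile was 23.9 and for rpe-S1 65.6. In 50 over 20 µg/L the member median was -0.54, against 0.11 over all genes. At 20 µg/L over control it was -0.05, the same as over all genes. Negative log2 changes were found for 4 of 5 member probe sets at 50 µg/L over control (43.9% of all), 2 of 5 at 20 µg/L over control (53.4% of all) and 4 of 5 in 50 over 20 µg/L (41.7% of all). The changes over control share the control arrays, and 50 over 20 µg/L shares arrays with both. An unadjusted limma p under 0.05 in the lower direction was found for 3 of 5 member probe sets at 50 µg/L over control (8.65% of all) and for 2 of 5 in 50 over 20 µg/L (5.13% of all). The members were chosen with earlier results of these data known, and they are not independent. Over the 9 arrays pgd had a Pearson r of 0.76 with taldo1 and 0.81 with tktb, while rpe-S1 had a negative r with every other member. Groups did not overlap, with 50 µg/L lower than control, for 2 of 5 (10.4% of all), which were pgd and rpe-A1. Probe set rpe-A1 was also the only member without overlap at 20 µg/L over control (1 of 5, against 6.96% of all lower) and in 50 over 20 µg/L (1 of 5, against 9.75% of all lower). It was 1 of 44 probe sets (0.473% of 9301) whose 3 groups lay in dose order without overlap, controls highest, and it was singled out after its values were seen.

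Scaling moved some of these values. The member median at 50 µg/L over control was -0.71 as deposited, -0.71 after quantile normalisation and -0.99 after centring. In 50 over 20 µg/L it was -0.54, -0.56 and -0.81. Centring each array on its median moved the median of all probe sets by -0.29 at 50 µg/L over control, and quantile normalisation moved it by -0.16. Relative to the median of all probe sets, the member median at 50 µg/L over control was -0.81 as deposited and -0.66 after quantile normalisation. In 50 over 20 µg/L these relative values were -0.66 and -0.51. Centring shifts all probe sets of an array by the same amount, so it leaves these relative values unchanged by construction and does not test them.

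**Figure D3:**
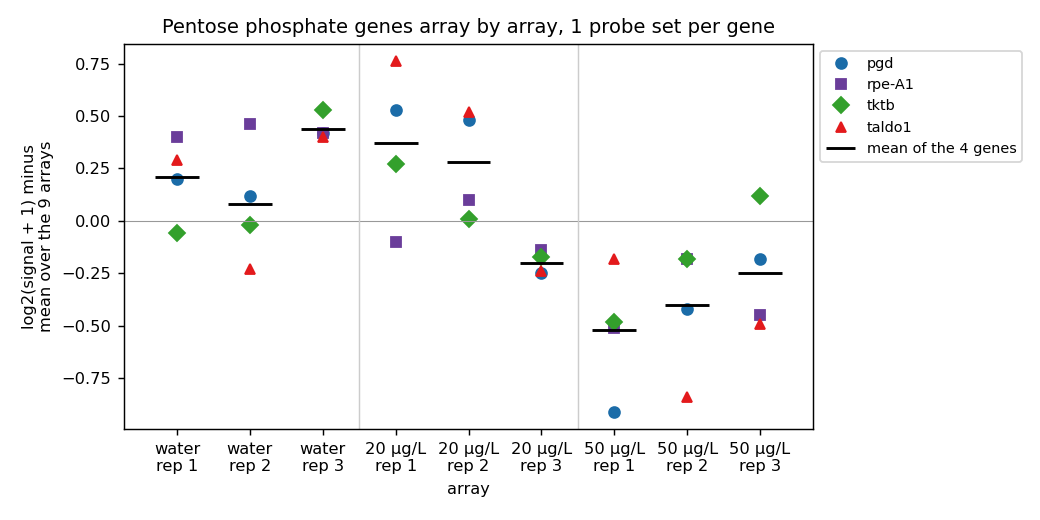
Log2(signal + 1) minus its mean over the 9 arrays (vertical axis) for pgd, rpe-A1, tktb and taldo1 on each array, with black bars for the mean of the 4 genes. The mean bar is below 0 on all 3 arrays at 50 µg/L and on 20 µg/L replicate 3, and above 0 on the other 5 arrays.

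Array by array, the mean of the 4 genes relative to its 9-array mean was 0.21, 0.08 and 0.44 log2 units in controls. The 20 µg/L values were 0.37, 0.28 and -0.2 in replicates 1, 2 and 3. At 50 µg/L it was -0.52, -0.4 and -0.25. The 20 µg/L array below 0 was replicate 3, the array with the high gapdhs signal of its group. The lowest of all was 50 µg/L replicate 1, which also had the highest gapdhs signal (7679.8) and the highest median signal (151.9) of the 9 arrays. The highest of all was control replicate 3, which had the highest gapdhs signal of the controls (175). It was also the array with the highest background (113.8) and the lowest rank correlation with the others (0.847). The part of such array differences in the member signals was not tested.

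Among the 6112 other tested genes, those whose array profile was most like this mean were drg1 (Pearson r = 0.979), exosc6 (0.978), prpf19 (0.976), dnaja2a (0.973) and si:dkey-23i12.5 (0.972), over 9 arrays that share their groups and their scaling. In all 106 genes had r above 0.9. Of these 5 named genes, dnaja2a fell at 50 µg/L over control, with a log2 change of -1.28 and a limma adjusted p of 0.0279. The 5 were picked for likeness to a mean that was low at 50 µg/L, so a lower signal there is partly built in. Without 50 µg/L replicate 1 this call was lost, as 0 of 9301 probe sets passed.

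Genes that feed or drain the pathway were read from lists of neighbours, each without the members themselves. In the list of entry and side steps 5 of 12 genes were on the array and 3 were tested, and 0 of 3 passed at 50 µg/L over control. The ribose-phosphate pyrophosphokinases prps1a and prps1b, which activate ribose 5-phosphate for nucleotide synthesis, had changes of -0.32 (limma adjusted p = 0.436) and -0.94 (limma adjusted p = 0.0796). At 20 µg/L over control they were 0.32 (limma adjusted p = 0.735) and -1.21 (0.61). In 50 over 20 µg/L they were -0.64 (limma adjusted p = 0.195) and 0.27 (0.651). For prps1b the estimate at 50 µg/L was thus not below that at 20 µg/L, with an interval of -0.36 to 0.91. The median of the 3 tested genes at 50 µg/L over control was -0.32. Of 15 tested nucleotide synthesis genes 0 passed, with a median of -0.25 and negative values for 11.

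Among glycolysis genes that share intermediates with the pathway, 3 of 11 tested rose at 50 µg/L, 0 fell, and the median was 0.66. The isomerase gpia, which interconverts glucose 6-phosphate and fructose 6-phosphate, where both branches meet glycolysis, gave 282.7, 427.7 and 395.2 in controls, 575.9, 409.9 and 943.4 at 20 µg/L, and 2675.2, 1952 and 1220.9 at 50 µg/L. Its log2 change at 50 µg/L over control was 2.35 (SE 0.37), with a limma adjusted p of 0.00845. The other risers were gapdhs, a glyceraldehyde-3-phosphate dehydrogenase (5.39, SE 0.83, limma adjusted p = 0.00844), and aldocb, an aldolase (limma adjusted p = 0.0237). The aldocb signals were 8.1, 59.9 and 23.3 in controls, 56.9, 12.6 and 173.1 at 20 µg/L, and 639.7, 411.4 and 281.7 at 50 µg/L. Only 1 of its 3 control signals was above the background level of its array, so the size of its change at 50 µg/L over control depended on how dim values were treated: it was 4.15 as deposited, 2.95 with an offset of 32 and 2.56 with dim values raised to background. A second tested aldocb probe set, with 0 of 3 control signals above background, also passed at 50 µg/L over control (limma adjusted p = 0.0282) and in 50 over 20 µg/L (limma adjusted p = 0.0355), where its signals were 893.9, 764.3 and 379.3 at 50 µg/L, against 7.2, 6.2 and 176.3 at 20 µg/L.

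Of 8 tested genes on the list labelled other NADPH makers 1 fell, 0 rose, and the median was 0.36. That label is loose, and the cofactor each enzyme uses was not measured. A call in this list is therefore not a reading of NADPH supply. The one that fell was mthfd2, a mitochondrial enzyme of folate metabolism, with 787.4, 517.8 and 713.1 in controls, 315.2, 359.3 and 220.9 at 20 µg/L, and 164.4, 153.2 and 238 at 50 µg/L. Its log2 change at 50 µg/L over control was -1.86 (SE 0.31, limma adjusted p = 0.00964). Of 6 tested NADPH-using genes 0 passed, with a median of 0.17. Of 7 tested genes of the Nrf2 pathway, the response to electrophiles and oxidants that in mammals includes pentose phosphate enzymes among its targets, 1 rose and 0 fell, with a median of 0.19.

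The Nrf2 pathway gene that rose was gclc, the catalytic subunit of the enzyme that limits glutathione synthesis. The other subunit of that enzyme, gclm, had a negative change at 50 µg/L over control that did not pass. It was -0.71 (interval -1.34 to -0.08, limma adjusted p = 0.159). In that comparison 2 of the 7 tested genes of this list had negative changes. The gclc signals were 892.6, 929.9 and 679 at 50 µg/L, against 324.3, 468.6 and 386.9 in controls, a difference of 1.08 log2 units (SE 0.28) at a limma adjusted p of 0.0487, and this call was lost in 15 of 22 alternatives. These 5 neighbour calls were all lost when 50 µg/L replicate 1 was left out, with limma adjusted p-values of 0.0717 for gapdhs, 0.0722 for gpia, 0.0822 for mthfd2, 0.141 for aldocb and 0.191 for gclc. Without that array 0 of 9301 probe sets passed in all. With 1 probe set per gene, 0 tested genes of these 6 lists passed at 20 µg/L over control and in 50 over 20 µg/L, the second aldocb probe set being outside that count.

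**Figure D4:**
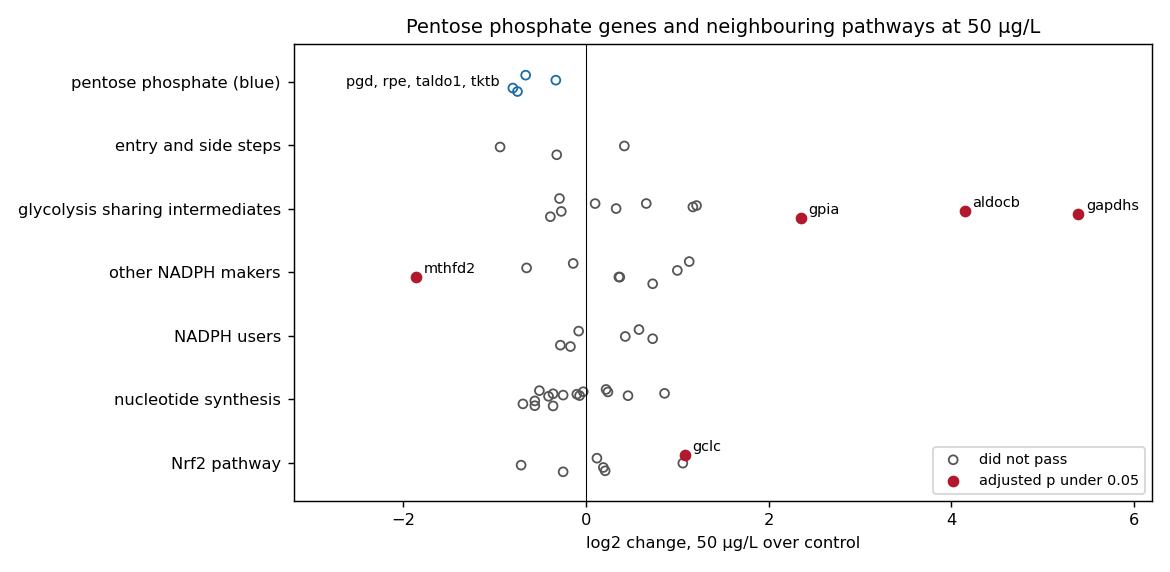
Log2 change at 50 µg/L over control (horizontal axis) of each tested gene, 1 point per gene with vertical jitter, for the 4 pentose phosphate genes (top row, blue) and 6 neighbour lists below; filled red points passed at adjusted p under 0.05. The blue points, with rpe shown by rpe-A1 only, lie between -0.8 and -0.33, all open. Of the neighbours, gpia, aldocb, gapdhs and gclc passed above 0 and mthfd2 below 0.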

How the data were processed

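The deposited values are signal intensity values on a linear scale, 1 per probe set and array, made by the authors with GCOS and MAS5, per the submitters' processing notes; versions were not given in the sources used here. Each array's mean after trimming 2% at each end was 500.1 to 500.2. Each array had thus been scaled to 1 trimmed mean, so a shift of many genes moves the values of the rest. Arrays with replicate number 3 carried more decimals than the other 6. In 36 pairs of arrays 0 held identical values.

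Values were taken as log2(value + 1). The 115 control probe sets and the lowest 40% of the others by mean log2 value were left out (mean log2 under 6.08). limma 3.58.1 in R 4.3.3 was fitted to all 9 arrays without a block (eBayes with trend, two-sided), tested on simulated data. The probe set with the highest mean log2 value stood for its gene in medians and lists. Annotation gave 1 gene for 10802 probe sets, several for 135 and none for 4680. Neighbour genes were named where they passed, at most the 4 smallest p per list and comparison. Members and lists were chosen with earlier results of these data known. The number of arrays limits precision. Alternatives covered filter, offset, dim values, scaling, weights, blocks and left-out arrays.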

Additional observations from a re-analysis of the deposited data

How the results depend on the processing

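Member probe sets called at 50 µg/L over control numbered 0, against 1 with median centring and 2 with array weights (pgd there at -0.8, limma adjusted p = 0.0375). Centring called 570 and array weights 1724 of all 9301 probe sets in that comparison. In 50 over 20 µg/L the members called numbered 0, against 2 with array weights, 2 with only the 6 arrays of 1 decimal (pgd -1.17, limma adjusted p = 0.0212; taldo1 -1.15, 0.03) and 0 to 1 with single arrays left out. Array weights called 1934 and the 6 arrays 1171 of all 9301 probe sets there. In the F test the members called numbered 0, against 3 with array weights and 1 with the 6 arrays. These 2 settings called 2128 and 820 of all 9301 probe sets in the F test. The member median moved at 50 µg/L over control to -0.99 with centring. In 50 over 20 µg/L it moved to -0.81 with centring and -0.81 in the 6 arrays. Settings other than single left-out arrays gave medians from -0.99 to -0.49 at 50 µg/L over control. In 50 over 20 µg/L they gave -0.81 to -0.41, so some lay nearer to no change than the main fit. At 20 µg/L over control the member median was 0.26 in the 6 arrays. With single arrays left out the 3 medians ran from -0.8 to -0.6, from -0.69 to -0.41 and from -0.18 to 0.13. The cause of these differences was not tested.

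All probe sets called at 50 µg/L over control numbered 417, against 277 without the filter, 1724 with array weights, 240 with a replicate block, 196 with 2 groups only, 13 with control replicate 3 and 50 µg/L replicate 1 both left out (chosen after seeing the data) and 0 to 721 with single arrays left out. In 50 over 20 µg/L they numbered 129, against 79 without the filter, 195 with an offset of 32, 281 with dim values raised, 74 with quantile normalisation, 54 with centring, 1934 with weights, 54 with a replicate block, 1171 in the 6 arrays, 2 with both left out, 393 with 2 groups only and 1 to 449 with single arrays left out. The F test called 164, against 255 with an offset of 32, 320 with dim values raised, 2128 with weights, 74 with a replicate block, 820 in the 6 arrays, 3 with both left out and 0 to 427 with single arrays left out. At 20 µg/L over control 22 were called in the 6 arrays and 0 to 1 with single arrays left out.

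The labels' replicate numbers showed no clear pairing of the samples in these values. Correlations of deviations in the 9 same-number pairs ran from -0.16 to 0.23, and 1, after rounding, was above 0.1. Of 9 arrays 4 correlated best with their own number. The arrays of replicate number 3 differed from the rest in number of decimals, and the reason is not known. Whether samples of the same number shared a clutch or a handling step was not tested. With the replicate block 0 members were called at 50 µg/L over control (rpe-A1 limma adjusted p = 0.0793). The gclc call was lost in 15 of 22 alternatives, among them median centring (limma adjusted p = 0.085), quantile normalisation (0.0674), no filter (0.066), no trend (0.0617), 2 groups only (0.0807), the block (0.0736), and any 1 of the 3 arrays at 50 µg/L left out. The aldocb call was lost in 5 of 21, namely without 50 µg/L replicate 1 (0.141), 2 (0.0701) or 3 (0.05), without control replicate 1 (0.0616) and with both arrays left out (0.143). The comparison of tktb with tkta and its alternative were not run.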
